A study of Mus musculus with 10 samples.

Results

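Cardiac muscle genes, which mark the sleeves of heart muscle around the pulmonary veins of the mouse, were followed across the lungs of smoke-exposed and control mice. The genes were chosen by name (Myh6, Actc1, Tnnt2, Tnni3, Myl4, Myl7, Nppa, Ryr2 and Sln), and all probes listed under these names were taken. This gave 9 of the 27670 genes on the array and 17 of its 41174 probes. Lung RNA of 10 female mice of BALB/c, an inbred laboratory strain, obtained when 6 to 8 weeks old and then exposed, was measured with 1 Agilent whole mouse genome array per mouse. The 5 mice of the room air group breathed room air for 8 weeks. The 5 mice of the smoke group were exposed for the same 8 weeks to the smoke of 12 cigarettes per exposure, with 2 exposures of 50 minutes a day on 5 days a week. The labels name no genetic change and no other treatment in either group. The comparison asked how 8 weeks of cigarette smoke altered gene expression in the mouse lung.

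In rodents the wall of the pulmonary veins holds a layer of striated heart muscle that is continuous with the left atrium and runs along the veins into the lung. Its cells contract with actin and myosin filaments, which calcium switches on through the troponin complex, and they share many genes with atrial muscle. RNA of a whole lung therefore contains transcripts of heart muscle beside those of the airways, alveoli and vessels.

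Each array carried 2 colours, although the labels name 1 dye. The lung genes Sftpc and Scgb1a1 stood at mean log2 ratios of red over green of 5.77 and 6.60, and the Y chromosome gene Eif2s3y was well above background in green on 10 of 10 arrays and in red on 0. Red was therefore taken for the lung sample, and green for a reference containing RNA of males. All levels below are log2 ratios of lung over reference, and they can be compared between lungs but not between probes. Between 64.9 and 77.5% of spots were well above background in red on each array.

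The direction of every difference rests on the assignment of the scanner files to the samples. A second table of the authors, which holds the mean of both colours, has the groups exchanged against those files: all 286449 of its values match, to a tolerance of 1e-04, the equally numbered array of the opposite group. With the scanner files as assigned, the mean of Cyp1b1, a gene that smoke constituents are known to induce, was -1.61 ± 0.27 (SD, n = 5) in the room air group and 1.45 ± 0.16 in the smoke group (limma, adjusted p = 1.08e-07), and all smoke lungs lay above all room air lungs. Ahrr and Nqo1, other genes induced by smoke constituents, were higher with smoke by 1.96 (adjusted p = 1.77e-06) and 2.08 (2.50e-07), again with all smoke lungs above all room air lungs. These 3 genes were taken as a check of the labels and were chosen after their values were seen.

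Transcripts of heart muscle genes were detected in all 10 lungs. Of the 9 genes, 8 had a probe well above background in red on 10 of 10 arrays. The exception was Ryr2, the calcium release channel of heart muscle, whose probes were well above background on 1, 2 and 0 of 10 arrays. Further heart muscle genes were present too: among 16 other genes of the cardiac sarcomere, 15 were well above background on all 10 arrays, and so was Nkx2-5, a transcription factor of the heart. Of 5 ventricular genes 4 were well above background on all 10 arrays, and of 8 atrial genes 6. Since 64.9 to 77.5% of all spots were well above background in red on each array, nothing is read from these counts. The ventricular and atrial genes that were not include some typical of a part of the heart. Myl2, the regulatory light chain of the ventricle, was well above background on 2 of 10 arrays, and Bmp10, made by the right atrium, on 0 of 10. The arrays do not show where in the dissected tissue the RNA lay, and muscle of the veins and of adjoining atrium cannot be told apart.

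Troponin T, encoded by Tnnt2, anchors the troponin complex to the thin filament. Its log2 ratios with room air were 3.12, 2.75, 3.09, 3.00 and 2.50 in replicates 1 to 5, and with smoke 2.61, 2.53, 2.40, 2.37 and 2.49. Of the smoke lungs, 3 lay below all room air lungs, and the groups overlapped only through the lung of room air replicate 5. The means were 2.89 ± 0.26 (SD, n = 5) and 2.48 ± 0.10. The gene fell by 0.41 (SE 0.11), to 0.752 times the room air level, and just passed the threshold of 0.05 (limma, adjusted p = 0.0493). In these bulk samples, fewer cells of a type and less RNA per cell cannot be told apart. The second Tnnt2 probe was well above background on 0 of 10 arrays and gave no level.

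Troponin I, encoded by Tnni3, is the subunit that holds contraction in check until calcium rises. The ratios were 4.80, 4.37, 4.74, 4.23 and 3.96 with room air and 4.00, 3.95, 3.80, 3.17 and 3.93 with smoke. Of the smoke lungs, 4 lay below all room air lungs, and smoke replicate 4 was lowest by a wide gap. The difference of -0.65 (SE 0.19) did not pass the threshold over all probes (limma, adjusted p = 0.0686), and the second probe of the gene gave -0.61 (adjusted p = 0.0770). With arrays of the same number paired in limma's fit, as described below, the first probe passed (adjusted p = 0.0209).

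The atrial essential light chain Myl4 supports the lever arm of myosin. Its ratios were 3.72, 3.52, 3.88, 3.30 and 3.23 with room air and 3.18, 3.30, 3.06, 2.63 and 3.18 with smoke, so that 4 smoke lungs lay below all room air lungs and smoke replicate 4 was again lowest. The difference was -0.46 (SE 0.15; limma, adjusted p = 0.0964), and it passed with the arrays paired (adjusted p = 0.0302). For cardiac actin, Actc1, the building block of the thin filament, the ratios were 0.72, 1.04, 0.65, 1.00 and 0.36 with room air and 0.18, 0.42, 0.46, 0.50 and -0.11 with smoke. In this ratio the smoke lung of replicate 4 was the highest of its group, unlike in the other filament genes, and 4 room air lungs lay above all smoke lungs. In red alone, after quantile normalization, that lung was the lowest of all lungs for Actc1 (10.42). Its green signal was the lowest too (9.39). The difference in the ratio was -0.46 (SE 0.15; limma, adjusted p = 0.0928), and it too passed with the arrays paired (adjusted p = 0.00329).

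The probes behind these 4 genes are printed because the differences rest on them. Coordinates are those of the array design (mouse build mm7), and where they span more than the 60 bases of a probe, the probe sequence is not contiguous in the genome. The probe of Tnnt2 lies at chr1:135737607-135737919 on the plus strand, that of Tnni3 at chr7:4077835-4077894 on the minus strand and that of Actc1 at chr2:113789115-113790038 on the minus strand. The pair of Myl4 probes, at chr11:104693149-104693519 and chr11:104693162-104693532 on the plus strand, share a run of 47 bases, shown in capitals, and are no independent measurements of the gene.
Tnnt2: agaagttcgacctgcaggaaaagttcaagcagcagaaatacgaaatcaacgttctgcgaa
Tnni3: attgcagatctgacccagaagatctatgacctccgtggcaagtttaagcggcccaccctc
Actc1: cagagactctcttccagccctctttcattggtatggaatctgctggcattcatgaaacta
Myl4, brighter probe: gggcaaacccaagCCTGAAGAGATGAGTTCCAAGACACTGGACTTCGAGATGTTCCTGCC
Myl4, other probe: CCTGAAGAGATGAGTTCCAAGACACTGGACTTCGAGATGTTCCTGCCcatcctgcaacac

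The remaining myosin genes showed no such separation in the ratios. Myh6, the fast heavy chain of atrial muscle and of the adult mouse ventricle, had ratios of 4.48, 4.29, 4.66, 3.86 and 4.18 with room air and 4.51, 4.53, 4.42, 3.64 and 4.23 with smoke. The groups covered nearly the same range, with replicate 4 lowest in both. The difference was -0.03 (SE 0.18; limma, adjusted p = 0.969), and the second probe of the gene gave -0.04. Myl7, the atrial regulatory light chain, had ratios of 5.78, 5.64, 5.87, 5.43 and 5.71 with room air and 5.73, 6.05, 5.53, 5.04 and 5.70 with smoke. The highest and the lowest lung both belonged to the smoke group, and the difference was -0.07 (SE 0.16; adjusted p = 0.898).

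Among the genes outside the filaments, Nppa encodes the atrial natriuretic peptide, a hormone that atrial muscle releases when stretched. It varied most among the lungs, with ratios of 4.22, 3.46, 3.38, 1.83 and 2.25 with room air and 2.90, 2.31, 3.33, 1.56 and 3.09 with smoke. Room air replicate 1 and smoke replicate 4 were 6.30-fold apart in the ratio, while in red the range over the 10 arrays was 3.53 on the log2 scale. Of the room air lungs, 3 lay above all smoke lungs, and the other 2 lay within the range of the smoke group. The difference between groups of -0.39 (SE 0.46) was within the spread of the lungs (limma, adjusted p = 0.781). It was -0.09 without room air replicate 1 and -0.69 without room air replicate 4. Its size also moved with the processing, from -0.14 in the scanner's own ratio and -0.22 in ratios scaled between arrays to -0.75 (quantile normalization) and -0.79 (75th percentile) in red alone, and it passed the threshold in none of these.

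Sarcolipin, encoded by Sln, is a small inhibitor of the calcium pump and is typical of atrial muscle. Its ratios lay between 4.83 and 5.42 with room air and between 4.39 and 5.26 with smoke, with 1 smoke lung, replicate 4, below all room air lungs. The difference was -0.23 (SE 0.16; adjusted p = 0.540). It was -0.11 without smoke replicate 4, -0.33 without smoke replicate 2 and -0.06 with offset 16 in the background correction. The second Sln probe was well above background on 4 of 10 arrays and gave -0.03. Ryr2, as stated, was near background on its 3 probes, with differences between -0.05 and 0.02, so that a change in it was not detectable at this signal.

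**Figure D1:**
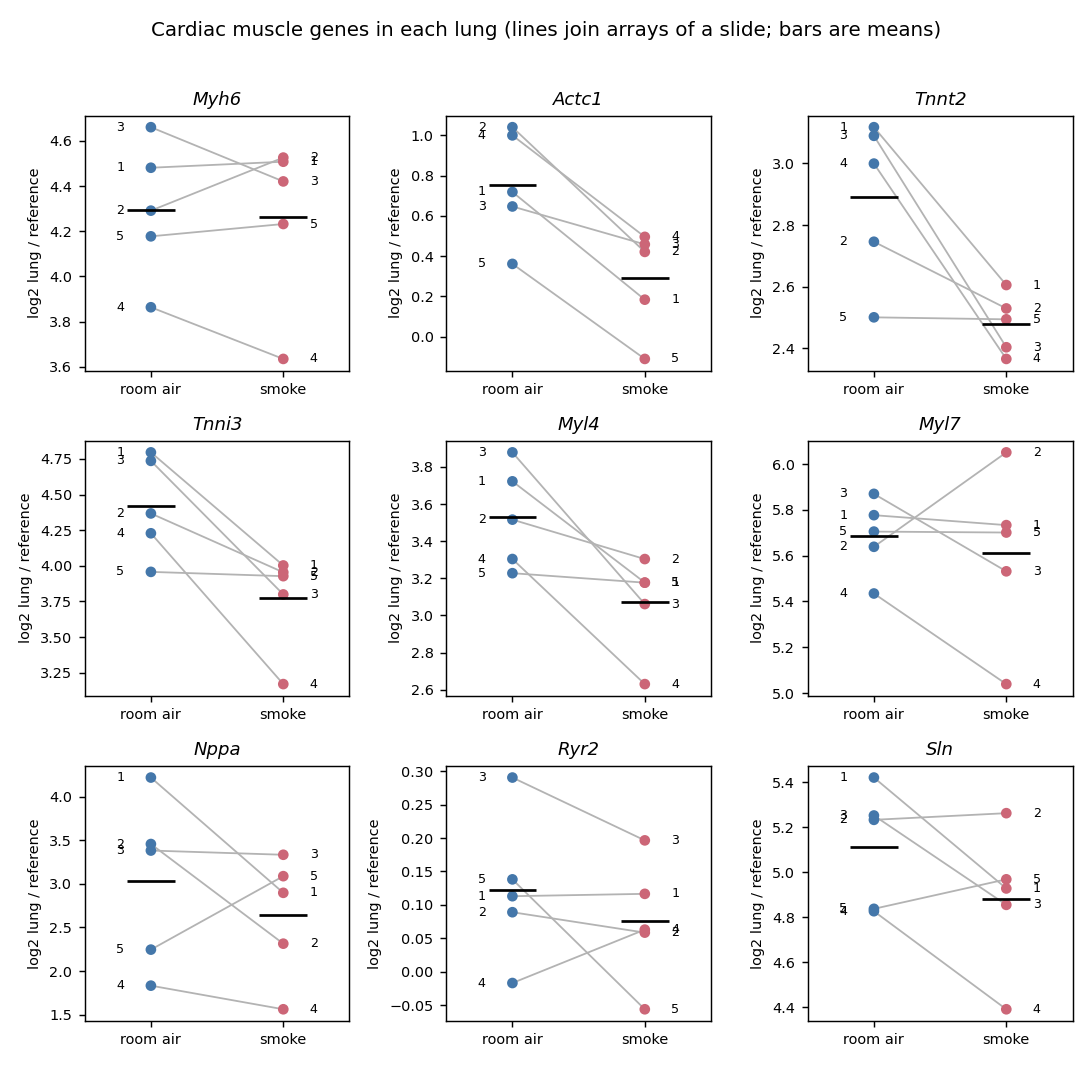
Log2 ratio of lung over reference of each of the 9 genes (brightest probe) in 5 room air and 5 smoke lungs. Numbers are replicates, grey lines join the arrays of 1 slide and black bars are group means. For Tnnt2, Tnni3, Myl4 and Actc1 all 5 lines point down, while for Myl7 the highest (6.05) and the lowest (5.04) lung are both smoke lungs.

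By limma's test, 1 of the 9 genes was called, and it was lower, against 7.06% of all 41173 probes tested (4.36% higher and 2.71% lower). The smoke mean was below the room air mean in the 8 genes other than Ryr2, although Myh6, Myl7 and Sln turned to 0.18, 0.20 and 0.015 with ratios scaled between arrays. Ryr2 also had a lower mean, but it was near background and its sign carries little. The median difference over the 9 was -0.39, against -0.003 over all probes, of which 51.3% had a negative difference. In the ratios, the groups overlapped for all 9 genes, while 6.88% of probes had groups that did not overlap and 2.79% had all smoke lungs below all room air lungs. The call of Tnnt2 was near the threshold and was made in 4 of 21 alternative settings. The exact Wilcoxon test, among the 21, could not have called it with 5 lungs a group. With ratios scaled between arrays the Tnnt2 difference was -0.27 (adjusted p = 0.18), and that of Myl4 -0.29 (0.473). The call of Tnnt2 was lost when any 1 lung other than that of room air replicate 5 was left out (adjusted p of 0.0592 to 0.119). Without room air replicate 5 its adjusted p was 0.00541.

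The smoke and room air arrays with the same number shared a slide, with smoke always in the first place and room air in the second. Place and group therefore cannot be told apart. On each of the 5 slides the smoke lung was lower than its room air partner for Tnnt2, Tnni3, Myl4 and Actc1, and over the 8 genes other than Ryr2 this held for 33 of 40 differences. The Tnni3 differences were -0.79, -0.41, -0.94, -1.06 and -0.03 on slides 1 to 5, so the slide of replicate 5 showed almost none. With the replicate block in limma's fit, all 4 genes were called lower, namely Actc1 (adjusted p = 0.00329), Tnni3 (0.0209), Myl4 (0.0302) and Tnnt2 (0.0340). These 4 of 9 compare with 12.2% of all probes called with the block, and 5.41% called lower. The adjusted p with the block was 0.203 for Sln, 0.484 for Nppa, 0.671 for Ryr2, 0.771 for Myl7 and 0.873 for Myh6.

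The 2 colours gave different pictures for some of the genes. In red alone, after quantile normalization between arrays, Myl7 averaged 15.24 ± 0.26 (SD, n = 5) in the room air group and 14.54 ± 0.25 in the smoke group on the log2 intensity scale, a difference of -0.70 (limma, adjusted p = 0.0187). For this gene the green reference was also lower with smoke, with a difference of -0.59 (adjusted p = 1.00), so that little of the difference was left in the ratio. Myh6 had differences of -0.49 in red and -0.40 in green, and Sln of -0.75 (adjusted p = 0.0453) and -0.47. For Tnni3 and Tnnt2 the differences were -0.83 (adjusted p = 0.0209) and -0.63 (adjusted p = 0.0391) in red, against -0.16 and -0.21 in green, and Myl4 gave -0.83 (adjusted p = 0.0161) and -0.35.

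In red alone 5 of 9 genes were thus called lower (Tnnt2, Tnni3, Myl4, Myl7 and Sln), where 2.28% of all probes were. In the red signal processed by the scanner software and scaled to the 75th percentile of each array, 1 gene was called, Myl4 (-0.84, adjusted p = 0.0218), where 1.5% of all probes were called lower. The differences there were of similar size, at -0.81 for Tnni3 (adjusted p = 0.0541), -0.77 for Sln (0.0690), -0.62 for Tnnt2 (0.0851) and -0.65 for Myl7 (0.0937). With quantile normalization, for Tnni3 and Myl4 all smoke lungs lay below all room air lungs, as for 2.48% of probes. Green had a lower smoke mean in 8 of 9 genes, and for Myl4 and Sln all smoke arrays lay below all room air arrays, which held for 0.18% of probes. In green 0 of 9 genes were called by limma, with 0.00729% of probes called lower, 14 called in either direction and 429 at an unadjusted p under 0.05. Across the 10 arrays red and green of a gene moved alike for Tnnt2 (r = 0.967), Sln (0.924), Nppa (0.868) and Myl4 (0.867), given as a description over arrays that share slides in pairs. The r was lower for Myl7 (0.807), Tnni3 (0.759), Myh6 (0.716) and Actc1 (0.562), and -0.276 for Ryr2. The files do not say what the green sample was. Whether red signal entered green, and the part of this shared movement in the ratios, was not tested.

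**Figure D2:**
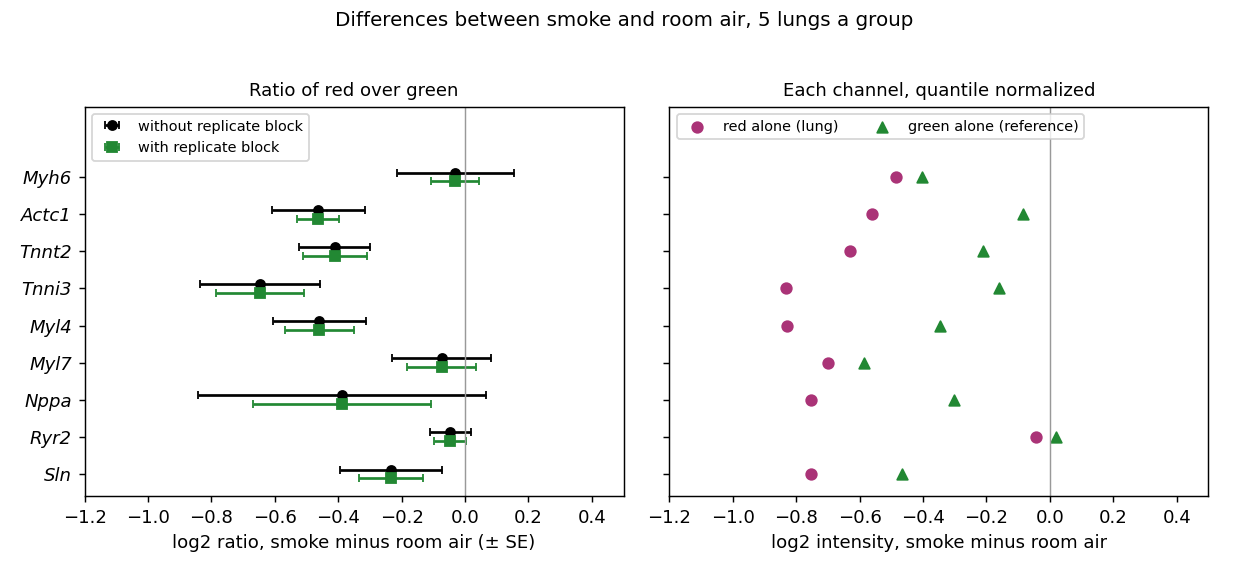
Difference between smoke and room air (5 lungs a group) for each of the 9 genes. The left panel shows the log2 ratio with its standard error, without and with the replicate block, and the right panel shows red and green intensities alone. Myh6 and Myl7 are near 0 in the ratio (-0.03 and -0.07) but at -0.49 and -0.70 in red and -0.40 and -0.59 in green.

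Within groups, the lungs differed more in most of these genes than in most other probes. The SD among room air lungs had a median of 0.274 over the 9 genes and 0.112 over all probes, and among smoke lungs 0.315 and 0.0975. Such spread was not particular to the 9 genes. The medians with room air and smoke were 0.332 and 0.222 over 16 cardiac sarcomere genes, and 0.440 and 0.236 over 6 white fat genes. Over 6 lung genes they were 0.219 and 0.302, and over 12 smooth muscle genes 0.140 and 0.195. The medians over all probes include dim probes. For Ryr2 the SD was larger than those of only 49.3 and 45.6% of probes. Nppa had an SD of 0.97 with room air and 0.71 with smoke, larger than those of 99.8 and 99.9% of probes. Tnnt2 was the most even of the detected genes with smoke, at an SD of 0.10, larger than in 49.2% of probes. Smoke replicate 4 had the lowest ratio of all 10 lungs in 7 of 9 genes, and a room air lung had the highest in 8 of 9, replicate 1 in 4 genes and replicate 3 in 3.

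When each gene was centred and divided by its SD over the 10 lungs, the mean of the 9 genes was 1.01, 0.48, 1.14, -0.25 and -0.28 in room air replicates 1 to 5. In the smoke lungs it was -0.08, 0.11, -0.15, -1.47 and -0.50. Room air replicates 1, 3 and 2 were therefore highest and smoke replicate 4 was lowest, while the other lungs of both groups overlapped.

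Over the 10 lungs, 34 of the 36 pairs of genes had a positive correlation of their log2 ratios, with a median Pearson r of 0.574 and a median Spearman rho of 0.509. Of the 36, 9 passed an adjusted p of 0.05 for r and 5 for rho (permutation test with 100000 resamples, Benjamini-Hochberg over the pairs). The permutation treats the 10 lungs as exchangeable and takes no account of shared slides or of the group means. By r, Tnni3 and Myl4 were most alike, with r = 0.979 and rho = 0.939 (permutation p of 3.00e-05 and 0.000170, adjusted 0.00108 and 0.00264), and r was 0.966 without the 2 lungs farthest from the median. By rho, Tnnt2 and Tnni3 were most alike, with r = 0.893 and rho = 0.976 (permutation p of 6.00e-05 and 2.00e-05, adjusted 0.00108 and 0.000720), and r was 0.747 without the 2 farthest lungs. The troponin genes and the light chain Myl4 went together over the lungs.

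Sln was close to Myl4 (r = 0.886, rho = 0.648, permutation p of 0.000940 and 0.0495, adjusted 0.00871 and 0.221; r = 0.829 without the 2 farthest lungs) and to Tnni3 (r = 0.858, rho = 0.576, permutation p of 0.00237 and 0.0881, adjusted 0.0142 and 0.221; r = 0.567 without the 2 farthest lungs). Myh6 and Myl7 had r = 0.872 and rho = 0.855 (permutation p of 0.00121 and 0.00260, adjusted 0.00871 and 0.0234). Without room air and smoke replicate 4, the lungs farthest from the median, r was 0.528. With group means removed r was 0.875, and that of Myh6 and Myl4 was 0.905, against 0.686 before. Myl7 and Sln gave r = 0.838 and rho = 0.818 (permutation p of 0.00371 and 0.00546, adjusted 0.0182 and 0.0393), and 0.619 without the 2 farthest lungs. In the ratios the relation of Myl7 to Tnnt2 was weak, at r = 0.306 and rho = 0.491 (permutation p of 0.408 and 0.156, adjusted 0.525 and 0.281; r = 0.0787 without the 2 farthest lungs), while in red alone r was 0.918 and rho 0.855.

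In the ratios, Actc1 stood apart from the other genes. Its correlations with the 8 others lay between -0.165 and 0.595, with a median of 0.197, and 0 of the 8 passed the threshold, the smallest unadjusted permutation p being 0.0717. After each group's mean was removed, its median was -0.156 and 1 of 8 was positive, while over all 36 pairs the median was 0.498 and 29 were positive. In red alone this was not so: the r of Actc1 to the 8 others lay between 0.352 and 0.876, with a median of 0.753, and after removal of group means the median was 0.407. With ratios scaled between arrays the median was -0.116. The green signal of Actc1 ranged from 9.39 to 10.33 over the arrays. Pairs with Ryr2, which was near background, had a median r of 0.293, and 0 of these 8 passed the threshold either. Of the 8 pairs with Nppa, 1 passed, at a median r of 0.585.

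The shared variation rested in part on the lungs at the ends. Without the 2 lungs farthest from the median of the 9-gene mean, the median r over pairs was 0.309, and without smoke replicate 4 alone it was 0.423. When the ratios of each array were scaled to a common spread, it was 0.324, and in red alone it was 0.777. A slide held 1 array of each group, which leaves 5 differences within slides per gene, and no correlation was computed from these. Probes of the same gene followed each other closely over the lungs, with r of 0.925 for Myh6, 0.942 for Tnni3, 0.994 for Myl4 and 0.977 for Nppa, rho between 0.891 and 0.976 (adjusted permutation p of at most 0.00114 over the 4 pairs), and r of 0.909 to 0.988 without the 2 farthest lungs.

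**Figure D3:**
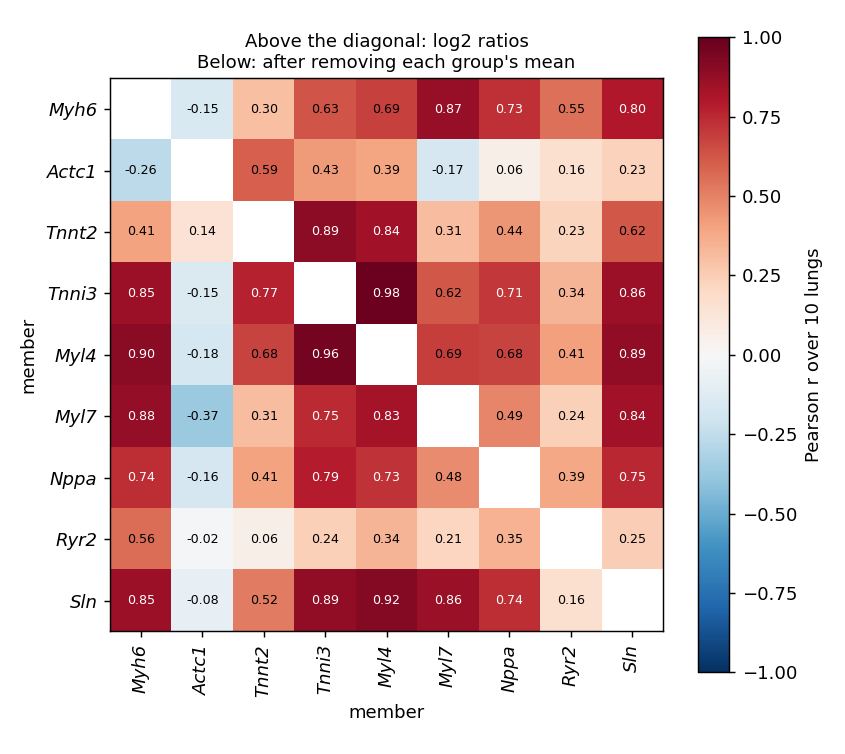
Pearson r between the log2 ratios of each pair of the 9 genes over 10 lungs, as measured (above the diagonal) and after removing each group's mean (below). Tnni3 and Myl4 give 0.98 and 0.96, and the row and column of Actc1 are pale, with values from -0.17 to 0.59 above and from -0.37 to 0.14 below the diagonal.

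The genes whose ratios were most like the mean of the 9 were sought among 15355 other genes with a current symbol and a signal well above background in red on at least 5 arrays. Likeness was measured as Pearson r over the 10 lungs and is given as a description. The highest was Ckm, the muscle creatine kinase (r = 0.990), followed by its mitochondrial relative Ckmt2 (0.979), Csrp3, a protein of the muscle Z disc (0.975), and Mybphl, a relative of myosin binding protein C (0.965). The next were Trarg1, Pde4dip, Dll4, Hhatl, Actn2, Notch4, Atp1b2, Epn2, Cmya5, Akap5 and Xirp2, the last with r = 0.941. Of these 15 genes, Cmya5 was lower with smoke (-0.65, adjusted p = 0.0476 by limma) and the other 14 did not pass the threshold. With the replicate block 14 of the 15 were lower, all but Dll4, against 5.41% of all probes, but nothing is read from this count, since the genes were chosen for likeness to a mean that was itself lower with smoke. Dll4 and Notch4 are a ligand and a receptor of the Notch pathway in vessel walls. Of the 15355 genes, 386 had an r over 0.8 (2.51%) and 60 an r over 0.9, and the median was 0.0707. With ratios scaled between arrays 10 of the 15 kept an r over 0.8, in red alone 11 and with group means removed 15. Ckm had r = 0.926 with scaled ratios and 0.924 in red alone, where it ranked 5 and 16 and so was not the highest.

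The counts of genes lower with smoke in the lists that follow stand against 2.71% of all probes by limma's test and 5.41% with the replicate block. Of 16 cardiac sarcomere genes, 4 were lower by limma's test and 0 higher: Ttn, the giant spring protein (-0.85, adjusted p = 0.0371), Smpx (-0.63, 0.0355), Tnnc1, the calcium-binding troponin (-0.61, 0.0300), and the chaperone Cryab (-0.46, 0.00108). The median difference was -0.47, 11 of 16 were lower with the replicate block, and 11 of 16 had an r over 0.8 to the mean of the 9 genes, led by Csrp3, Mybphl, Actn2 (0.956) and Myoz2 (0.903). With ratios scaled between arrays 3 of 16 did. Among 16 genes of calcium handling and ion channels, 2 were lower, the calcium store protein Casq2 (-0.65, adjusted p = 0.0319) and the calcium pump Atp2a2 (-0.49, 0.0113), and 0 were higher. The highest r in this group were those of Trdn (0.912), Pln (0.860), Cacna1c (0.823) and Casq2 (0.784), while the lowest were those of Slc8a1 (-0.565) and Cacna2d2 (-0.690). With the replicate block 8 of 16 were lower, where 5.41% of all probes were.

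A list of 13 genes held 10 of muscle energy supply and 3 others of heart muscle, the protease gene Corin, the natriuretic peptide gene Nppb and the stress-induced Ankrd1. Of the 13, 6 were lower (2.71% of all probes) and 0 higher, all 6 among the 10 energy genes, and with the replicate block 7 were lower (5.41% of all probes), now with Ckm and Ckmt2 and without Pgam2 (adjusted p = 0.0506). Nppb, the relative of Nppa, had a difference of -0.08 and an r of -0.342 to the mean of the 9 genes. Of these 6 genes, the largest differences were those of Cox8b, a subunit of cytochrome oxidase in muscle (-0.67, adjusted p = 0.0219), Fabp3, which carries fatty acids (-0.62, 0.00328), Pgam2 (-0.61, 0.0438) and Cox7a1 (-0.48, 0.0290), and the 6 include Mb, which encodes myoglobin, and Ldhb. Besides Ckm and Ckmt2, the highest r were those of Mb (0.844) and Cox7a1 (0.838). Of 12 transcription factors of the heart, Mef2a was lower (-0.29, adjusted p = 0.00723) and 11 did not pass. Among the 7 of them well above background on at least 5 arrays, Tbx5 had the highest r (0.887), followed by Mef2a (0.768), Gata6 (0.745) and Nkx2-5 (0.705), while Mef2c had 0.330 and Gata4 -0.714. With the replicate block 3 of 12 were lower, again against 5.41%.

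Of 8 atrial genes, Hey1 was lower (-0.58, adjusted p = 0.000180) and 7 did not pass. With the replicate block 3 of 8 were lower, also Gja5 (-0.66, adjusted p = 0.000369) and Pam (-0.47, 0.0488). The highest r in this group were those of Kcnj3 (0.798), Gja5, the connexin of atrium and arteries (0.797), Hey1 (0.693) and Nr2f2 (0.592). Of 5 ventricular genes, Myl3 was lower (-0.999, adjusted p = 0.00100) and 4 did not pass. The r of Myl3 was 0.741, that of Hey2 0.532, that of Myh7 0.466 and that of Irx4 -0.0977. The differences of the 4 that did not pass went both ways, from -0.15 for Hey2 to 0.16 for Irx4, and with the block 1 of 5 was lower.

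Of 15 skeletal muscle genes, Myl1 (-0.64, adjusted p = 0.00714) and Tnnt3 (-0.41, 0.00150) were lower, Tnni2 was higher (1.05, 6.16e-05), the median difference was -0.004 and 1 had an r over 0.8. Of all probes, 2.71% were lower and 4.36% higher.

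Genes of other tissues were measured as well. All 12 smooth muscle genes had a lower mean with smoke, with a median of -0.36, and 4 were lower by limma's test, against 2.71% of all probes: Mylk (-0.50, adjusted p = 0.000475), Acta2 (-0.45, 0.00900), Smtn (-0.40, 0.00221) and Synpo2 (-0.36, 0.0317). With the replicate block 9 of 12 were lower, against 5.41% of all probes. All 6 white fat genes also had a lower mean, with a median of -0.54, and 1 of them, Cidec, was lower by the test (-1.02, adjusted p = 0.0105). Lep was well above background on 2 of 10 arrays. The mean standardized ratio of the white fat genes was 1.19, 0.56, 1.54, -0.04 and -0.37 with room air and -0.62, -0.87, -0.03, -1.15 and -0.23 with smoke, highest in room air replicates 3 and 1 and lowest in smoke replicate 4, as for the 9 cardiac genes. Of 5 mesothelium genes, Upk3b was lower (-0.57, adjusted p = 0.00221), and 4 of 5 were with the block.

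The mean of the 9 genes was set against 5 of these groups and 3 measures of the arrays over the 10 lungs, as a description. With the cardiac sarcomere genes r was 0.963 and rho 0.903, with white fat 0.867 and 0.685, and with smooth muscle 0.837 and 0.770. Without the 2 lungs farthest from the median of each group of genes, these r were 0.938, 0.664 and 0.694. The lungs left out were room air replicates 1 and 3 for sarcomere and fat, with smoke replicate 4 still in, and smoke replicates 4 and 5 for smooth muscle. With group means removed, r was 0.948 for the sarcomere genes, 0.791 for white fat and 0.807 for smooth muscle. The 6 lung genes, of which 0 passed limma's threshold, had r = 0.699 and rho = 0.636 (r = 0.621 without the 2 farthest lungs and 0.879 with group means removed). For mesothelium r was 0.601 and rho 0.539, and with group means removed r was 0.187.

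Of the array measures, the 95th percentile of the log2 ratios of 23033 probes well above background in both colours had r = 0.799 and rho = 0.842 to the mean of the 9 genes (r = 0.615 without the 2 farthest lungs). This percentile was 2.31, 2.19, 2.30, 2.04 and 2.13 with room air and 2.23, 2.14, 2.29, 2.01 and 2.09 with smoke, so that both arrays of replicate 4 had the narrowest ratios at the high end. The median size of the log2 ratio gave r = 0.775 and rho = 0.806 (r = 0.758 without the 2 farthest lungs). The share of spots well above background in red gave r = -0.271 and rho = -0.0182, and r = 0.777 without both arrays of replicate 4, so that this relation rests on them. The part of the fat, smooth muscle, lung gene and array measures in the variation of the cardiac genes was not tested.

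**Figure D4:**
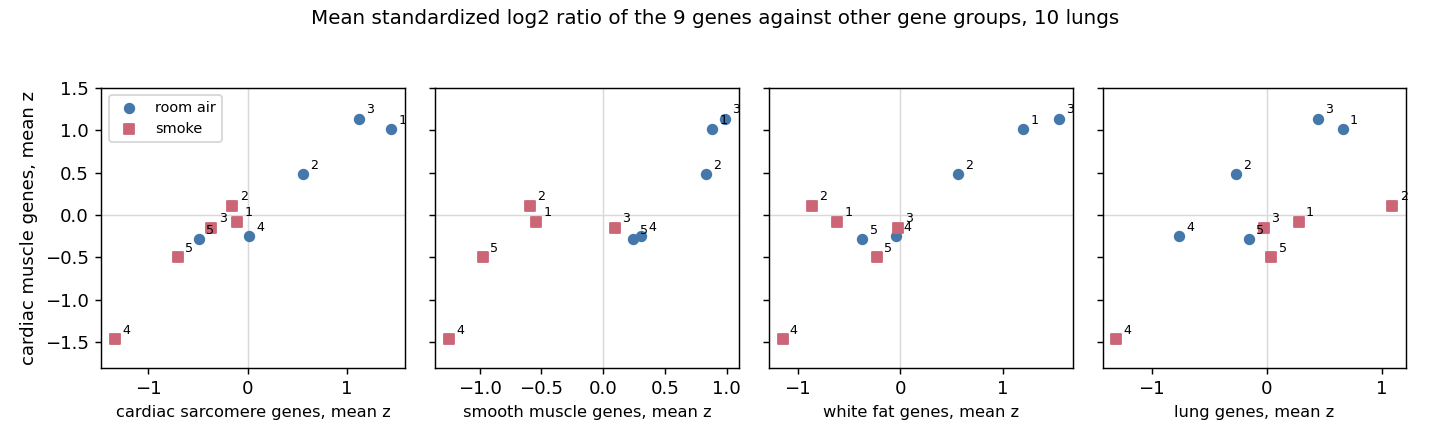
Mean standardized log2 ratio of the 9 cardiac muscle genes (vertical) against that of cardiac sarcomere, smooth muscle, white fat and lung genes (horizontal) in 10 lungs, numbered by replicate. Smoke replicate 4 (-1.47) is lowest in each panel, and room air replicates 1 and 3 (1.01 and 1.14) are high in cardiac, smooth muscle and fat genes alike. In lung genes these 2 room air lungs stand at 0.66 and 0.45, and smoke replicate 2 is highest (1.09).

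For the remaining groups, the share of all probes called was 4.36% higher and 7.06% in either direction by limma's test. With the replicate block it was 12.2% in either direction. Of 4 brown fat genes, Cidea was higher (0.82, adjusted p = 0.0484), and of 4 measured red cell genes, Slc4a1 was higher (1.29, adjusted p = 0.0144). Of 6 thymus, 5 cartilage, 6 lung and 4 Y chromosome genes, 0 passed limma's threshold, and with the replicate block the count was also 0 in each of these 4 groups. Nothing is read from these counts, since the groups hold only 4 to 6 genes each.

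Promoter sequences were searched because several of the genes moved together. RefSeq's table (GRCm38.p6) held 8 of the 9 genes, without Sln, and the 250 bases before each listed start were read on both strands. The CArG box, which serum response factor binds in muscle genes, was found for Actc1, 47 bases before the start, and for Myl7, 61 bases before it, so in 2 of 8 genes, against 1.47% of all 32851 promoters. The letters GATAA, bound by GATA factors, occurred in 3 genes (22.6% of all promoters), CATTCC, bound by TEAD factors, in 3 (12.6%), TATAAA in 1 (12.4%) and the MEF2 motif in 0 (2.92%). No match overlapped another. A match describes the letters only, and Myl7 and Actc1, which both hold a CArG box, had ratios that did not go together over the lungs (r = -0.165, rho = -0.236, permutation p of 0.656 and 0.515, adjusted 0.695 and 0.618; r = -0.192 without the 2 farthest lungs). In red alone their r was 0.735 and rho 0.758.

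The promoters with a CArG box and that of Tnnt2, the gene called in the comparison, are shown with all matches in capitals, where TTATC is GATAA on the other strand. They lie at chr2:114052876-114053125 on the minus strand for Actc1, chr11:5898783-5899032 on the minus strand for Myl7 and chr1:135836084-135836333 on the plus strand for the first of the listed starts of Tnnt2.
Actc1: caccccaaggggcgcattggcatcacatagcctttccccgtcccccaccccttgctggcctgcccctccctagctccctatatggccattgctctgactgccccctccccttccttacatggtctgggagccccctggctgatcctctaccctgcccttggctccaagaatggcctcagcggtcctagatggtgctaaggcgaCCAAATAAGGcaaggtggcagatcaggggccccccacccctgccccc
Myl7: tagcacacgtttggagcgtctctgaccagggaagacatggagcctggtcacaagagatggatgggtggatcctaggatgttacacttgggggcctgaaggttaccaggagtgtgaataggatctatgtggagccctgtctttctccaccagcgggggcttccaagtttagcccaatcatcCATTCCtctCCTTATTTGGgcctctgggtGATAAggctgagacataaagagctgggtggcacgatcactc
Tnnt2: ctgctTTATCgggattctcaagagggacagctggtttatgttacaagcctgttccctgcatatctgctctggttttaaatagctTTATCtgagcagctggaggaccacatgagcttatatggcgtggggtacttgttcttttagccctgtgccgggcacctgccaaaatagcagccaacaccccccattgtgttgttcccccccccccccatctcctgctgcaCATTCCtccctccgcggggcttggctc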

How the data were processed

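For each array the deposited scanner file gives red and green intensity of every spot with its local background, written by Agilent Feature Extraction (9.5.3.1 in the file headers, 9.1 in the labels). The same deposited files hold a log10 ratio of red over green from the scanner software. A further deposited table holds log2 values, the mean of both colours after background subtraction with no normalization between arrays. In it the samples of each number stand under the opposite group. Its column medians are 8.03, 7.86, 7.34, 8.03 and 7.84 as labelled room air and 7.96, 8.06, 7.81, 7.66 and 7.88 as labelled smoke. The labels describe 1 colour, Cy3.

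Mean intensities were corrected with normexp (offset 50) of limma 3.58.1 in R 4.3.3, and log2 ratios of red over green were normalized by loess within arrays. Control spots and spots with an outlier flag were left out, and spots of a probe were averaged. Probes were named through the accession (22951 probes), current symbol (6659) or synonym (3109) of RefSeq's gene table (GRCm38.p6), and 8455 kept the name in the files. The brightest probe in red represented a gene. Groups were compared with lmFit and eBayes, two-sided, with Benjamini-Hochberg adjustment over 41173 probes, after a test on simulated data. Arrays of the same number share a slide per the file headers, on 5 slides scanned on 4 days. Their deviations from the group means correlated at 0.157 to 0.550, against at most 0.205 between different numbers, and the number was taken to pair the samples. The 0.157 is that of replicate 1 and lies within the range of different numbers. For replicate 1 the pairing therefore rests on the shared slide alone. Correlations over lungs used Python 3.11.15 with scipy 1.17.1. Named genes are the 9 genes, genes of 16 other lists that passed the threshold (at most 4 a list by size), in heart muscle lists also those with the highest correlation to the 9-gene mean (at most 4), and the 15 genes most like that mean. Myl2, Bmp10, Lep, Corin, Nppb, Ankrd1, Pam, Mef2c, Gata4, Slc8a1, Cacna2d2, Ldhb and, as checks of samples, Sftpc, Scgb1a1, Eif2s3y, Cyp1b1, Ahrr and Nqo1 were named outside this rule, after their values were seen. Listed genes not named count only in their lists, and 1 further result is not reported here. The 9 genes and the lists were chosen with earlier results of these data known. Alternatives changed the block, test, filter on dim probes, background correction, normalization, colour, table and handling of several probes, and left out each array in turn. How precise a value can be is limited by the number of arrays.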

Additional observations from a re-analysis of the deposited data

Results flagged for a closer look

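In the smoke group, the Tnni3 ratio of replicate 4 lay far from those of the others. It was 3.17 on the log2 scale, the nearest smoke lung was at 3.80 and the highest at 4.00, so that the gap made up 0.756 of the range of the group, above Dixon's critical value for 5 samples. This was 1 of 36 groups examined (17 probes and the 9-gene mean in each group of lungs), and chance alone gives about 1 in 20. With the second Tnni3 probe the gap made up 0.423 of the range and in red alone with the first probe 0.419, both below the critical value. The room air lung on the same slide was not apart in this way.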

How the results depend on the processing

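Over all probes, 2908 were called in limma's test. The count was 5025 with the replicate block, 1759 in red scaled to the 75th percentile, 13 in the authors' table (764 at an unadjusted p under 0.05), 0 with the exact Wilcoxon test (5450 at an unadjusted p under 0.05) and 14 in green alone, a setting chosen after seeing the data. Leaving out 1 lung gave 2097 to 3665.

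Of the 9 genes, 1 was called. The count was 4 with the replicate block, 5 in red with quantile normalization, 1 in red scaled to the 75th percentile (Myl4), 2 with dim probes left out (Tnnt2 and Tnni3) and 0 with offset 16, no background subtraction, scaled ratios, the scanner's own ratio, the mean of all probes, the exact Wilcoxon test and the authors' table, where 4, 4, 2, 4, 4, 3 and 4 genes had an unadjusted p under 0.05. Leaving out 1 lung gave 0 to 3, and 3 only without room air replicate 5 (Actc1, Tnni3 and Tnnt2). The replicate block changed no call of the 9 genes beyond those given with the slides.

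In the authors' table as labelled, whose groups are exchanged, the differences had the opposite sign: 0.59 for Myh6, 0.39 for Actc1, 0.49 for Tnnt2, 0.63 for Tnni3, 0.68 for Myl4, 0.72 for Myl7, 0.86 for Nppa and 0.99 for Sln, with no value for Ryr2. With ratios scaled between arrays Myh6 was at 0.18, Myl7 at 0.20 and Sln at 0.015, and with the scanner's own ratio at 0.078, 0.011 and 0.18. Myh6 was also positive with offset 16 (0.040) and ranged from -0.14 to 0.13 when 1 lung was left out, positive without room air replicate 1, room air replicate 3 or smoke replicate 4. Myl7 ranged from -0.18 to 0.069, positive without smoke replicate 4. The cause was not tested, except that the exchanged groups turn the signs in the authors' table. Actc1, Tnnt2, Tnni3, Myl4 and Nppa were below 0 in 20 of 21 alternatives each.

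The median within-group SD of the 9 genes, pooled over groups, was 0.287. It was 0.382 with scaled ratios and 0.403 in the authors' table, and 0.228 to 0.319 when 1 lung was left out, lowest without smoke replicate 4. The median r over pairs, 0.574, was 0.489 with offset 16, 0.324 with scaled ratios, 0.771 and 0.777 in red by percentile and by quantile normalization, 0.482 with the scanner's own ratio, 0.866 in the authors' table, 0.498 with group means removed and 0.309 without the 2 farthest lungs. Leaving out 1 lung gave 0.423 to 0.654. The likeness and the correlations of Actc1 (median r 0.197, 0.753 in red alone and -0.116 with scaled ratios) under other settings were also computed after seeing the data. Signal over background limits Ryr2, the second probes of Tnnt2 and Sln, Myl2 and Bmp10, for which a change could not be detected.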
